A study of Mus musculus with 20 samples.

Results

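The 10 core circadian clock genes Bmal1, Clock, Npas2, Per1, Per2, Per3, Cry1, Cry2, Nr1d1 and Nr1d2 were followed in mouse liver by RNA-seq. They were found by gene symbol among the 56884 genes of the deposited male table and the 18149 genes of the deposited female table, and all 10 were listed in both. The male table lists means down to 0, while the lowest mean listed in the female table was 6.61. Each sex was represented by livers of 3 WT and 3 Midn-T mice aged 11 to 14 weeks. WT mice carry the genotype label Midn XTR, a Midn allele with a gene-trap cassette in the orientation that leaves the gene expressed. In Midn-T mice, labelled Midn TR, Cre under the Albumin promoter had inverted the cassette in hepatocytes, so other liver cells were not the target. The mutation was made in C57BL/6J embryos, and whether WT mice carried Albumin-Cre, and the hour at which livers were collected, is not given in the sources used here.

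The only measurement used is the authors' mean normalized count, a gene's count divided by the library's size factor and averaged by the authors over the 6 livers of one sex, WT and Midn-T together. Both genotypes therefore contribute to every value below, and WT and Midn-T livers were not compared. No value of a single mouse was used, so no spread, standard error or test accompanies a level, sequencing depth is unknown for every library, and the order of neighbouring levels cannot be judged against a spread. The male and female tables were normalized separately by the authors, and sex cannot be told apart from any batch that the labels do not give. The means summed to 3.03e+07 in males and 3.08e+07 in females, of which the clock genes held 0.0672% and 0.0692%. The hepatocyte genes Alb, Apoa1, Ttr and Cyp2e1 had means from 84634 to 1.73e+06 in males and from 78781 to 2.33e+06 in females. Midn itself had a mean of 1672 in males and 1357 in females over both genotypes, so these values do not check the gene trap.

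The mammalian clock is a feedback loop of transcription. BMAL1 pairs with CLOCK, or with its relative NPAS2, and the pair binds E-box sequences and activates the Per, Cry and Nr1d genes. PER and CRY proteins return to the nucleus and block the pair, while the nuclear receptors REV-ERBα and REV-ERBβ, products of Nr1d1 and Nr1d2, compete with ROR receptors at ROR elements and repress Bmal1, Npas2 and Cry1. The RNA of most of these genes rises and falls over the day in liver, Bmal1 and Npas2 roughly opposite to Nr1d1 and the Per genes.

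The regulatory letters of this loop were looked for around the start of each gene's canonical transcript, on both strands of GRCm39. The search ran from 250 bases before this start to 50 bases after it. In Bmal1, Npas2, Per1 and Cry1 the 250 bases before it lay wholly inside the annotated gene, so starts further upstream were not covered. The E-box CACGTG was found in 2 of the 10 clock genes (Per1 and Cry1) and in 7.81% of 21770 promoters of protein-coding genes of the same length. The E-box variant CACGTT was found in 4 (Per2, Cry1, Cry2 and Nr1d1), against 4.99% of promoters, and 5 had at least one of these sequences, against 12.4%. The D-box TTATGTAA, bound by DBP, TEF, HLF and NFIL3, was found in Per2 and in Per3, which held 2 copies, against 0.937% of promoters. No match was found in these windows for the ROR elements TAGGTCA (2.49% of promoters) and TGGGTCA (3.73%), the D-box TTACGTAA (0.138%) or the cAMP response element TGACGTCA (2.44%). Annotated exons of any gene covered 250 of the 250 bases before the start for Clock and Cry1, 241 for Bmal1 and 230 for Nr1d1. They covered 182 for Npas2, 131 for Cry2, 88 for Per3, 23 for Per2, and 0 for Per1 and Nr1d2. Sequence outside these windows was not searched. The matches found are shown as sequence only, and whether any of them is bound in liver was not tested. Each is written on the gene's strand with the match in capitals, AACGTG being CACGTT on the opposite strand.
Per1, E-box: cccttaacgaCACGTGggccctcaat
Cry1, E-box: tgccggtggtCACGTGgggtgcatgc
Cry1, E-box variant: acacttcagaAACGTGaggtgccggt
Cry2, E-box variant: acatggtgggAACGTGagggggcgga
Nr1d1, E-box variant: cacagatctcAACGTGccggctgctg
Per2, E-box variant: cgcgcgcggtCACGTTttccactatg
Per2, D-box: catgtgcgtcTTATGTAAagagagcgac
Per3, D-box: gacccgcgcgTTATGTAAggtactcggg
Per3, D-box: ccgcccgcggTTATGTAAcccccgccgt

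The match began 22 bases before the start in Per1, 29 and 48 before it in Cry1, 106 before it in Cry2 and 72 before it in Nr1d1. In Per2 the D-box began 125 bases before the start and the E-box variant 5 bases after it, and in Per3 the D-boxes began 187 and 140 bases before it. The Cry1 E-box lies on chromosome 10 from 85020973 to 85020978 and that of Per1 on chromosome 11 from 68989246 to 68989251. The 250 bases before the canonical Per1 start, chr11:68989018-68989267 on the plus strand, lie inside the gene (68986035 to 69002300) but hold no annotated exon. They are printed whole, with the E-box in capitals, because the male and female means of this gene differed by over 1.5-fold.
Per1 upstream: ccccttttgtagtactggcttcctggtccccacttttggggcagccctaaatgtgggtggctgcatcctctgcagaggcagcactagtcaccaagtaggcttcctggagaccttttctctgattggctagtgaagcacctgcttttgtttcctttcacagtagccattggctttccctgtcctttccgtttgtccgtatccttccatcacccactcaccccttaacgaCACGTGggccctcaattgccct
These bases held 4 CG dinucleotides, the fewest of the 10 genes, against 41 before the Npas2 start and a median of 8 over all genes.

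Among the activators, Clock was far more abundant than Bmal1 and Npas2 in both sexes. Bmal1 (ENSMUSG00000055116, chromosome 7, 112806152 to 112914735), the partner common to both pairs, had a mean normalized count of 55.6 in males and 110 in females. Clock (ENSMUSG00000029238, chromosome 5, 76342860 to 76452846) had means of 1735 and 2084. Npas2 (ENSMUSG00000026077, chromosome 1, 39232705 to 39402323), which can stand in for CLOCK, was the lowest of the 10 with means of 3.68 in males and 17.1 in females. It was the only clock gene below a mean of 10 in a table, so it is left out of the counts between the sexes. Per kilobase of summed exon length, Bmal1 stood at percentile 7.18 of 16213 genes in males and 12.7 in females, and Clock at 61.8 and 66.3. The place of Bmal1 depends on the length used. Its level per kilobase was 4.80 in males and 9.48 in females by exon length and 11.9 and 23.5 by the longest transcript, and its mean before division by length stood at percentiles 24.0 and 32.3.

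The period genes encode the rhythmically made partners of the cryptochromes in the repressor complex. Per1 (ENSMUSG00000020893, chromosome 11, 68986035 to 69002300) had a mean of 2967 in males and 1862 in females. Per2 (ENSMUSG00000055866, chromosome 1, 91343700 to 91387069) had means of 2714 and 1692. Per1 and Per2 were thus both lower in females, by close to the same factor. Per3 (ENSMUSG00000028957, chromosome 4, 151081373 to 151129140) had means of 3065 and 3571, the higher one in females. All 3 stood between percentiles 81.2 and 88.5 of genes per kilobase in both sexes.

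The cryptochromes are the direct inhibitors of the CLOCK pair. Cry1 (ENSMUSG00000020038, chromosome 10, 84967560 to 85021252) had a mean of 329.9 in males and 187 in females. Cry2 (ENSMUSG00000068742, chromosome 2, 92233894 to 92264474) had means of 1867 and 1608. Cry1 stood at percentile 51.9 per kilobase in males and 36.9 in females, while Cry2 stood at 79.0 and 76.4.

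The REV-ERB genes were the most abundant of the 10 per kilobase in both sexes. Nr1d1 (ENSMUSG00000020889, chromosome 11, 98658752 to 98666188) had a mean of 2185 in males and 4500 in females. Nr1d2 (ENSMUSG00000021775, chromosome 14, 4230545 to 4266624) had means of 5424 and 5663. Nr1d1 stood at percentile 92.7 in males and 96.3 in females, and Nr1d2 at 91.8 and 92.2. Of all 10 genes, 8 lay above the median gene in males and 7 in females, Cry1 being the one that fell below it in females. Among protein-coding genes only the counts were 7 and 7, and with a minimum mean of 100 they were 6 in males and 7 in females, so nothing is read from their difference. Before division by length, Nr1d2 had the highest mean of the 10 in both sexes.

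**Figure D1:**
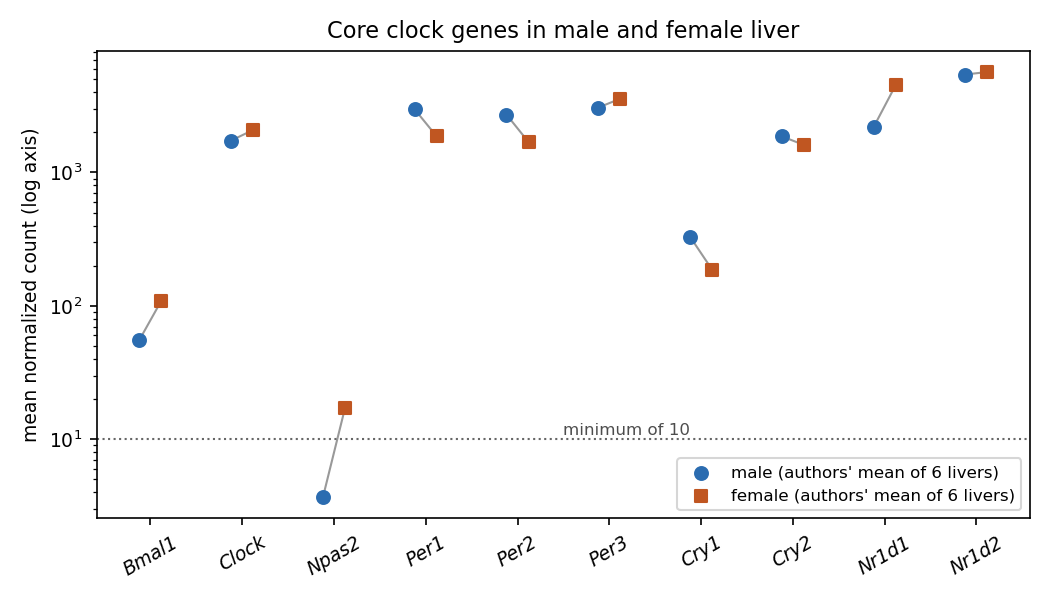
Mean normalized count of each core clock gene on a log axis, as the authors' mean over the 6 livers of each sex, male as circles and female as squares, with no error because no value of a single mouse was used. Npas2 lies under the dotted minimum of 10 in males (3.68), and Bmal1 and Nr1d1 are higher and Per1, Per2 and Cry1 lower in females than in males.

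Female and male means were set side by side for the 9 clock genes with a mean of at least 10 in both tables. Nr1d1 was 2.06 times and Bmal1 1.97 times as high in females as in males. Cry1 was 1.76 times, Per2 1.60 times and Per1 1.59 times as high in males as in females. The other 4 differed less, with female to male ratios of 1.20 for Clock, 1.17 for Per3, 1.04 for Nr1d2 and 0.862 for Cry2. The female to male ratio of Npas2 was 4.64, from the low male mean given above. Thus 5 of 9 clock genes differed by more than 1.5-fold, against 12.3% of the 16213 genes with a mean of at least 10 in both tables. In the direction of females there were 2 clock genes, against 8.63% of genes, and in the direction of males 3, against 3.66%.

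The middle of all genes lay near equality, with a median ratio of 1.04 and the 5th and 95th percentiles at 0.712 and 1.67. Nr1d1 and Bmal1 stood at percentiles 98.0 and 97.6 of these ratios, and Per1, Per2 and Cry1 at 2.78, 2.74 and 2.00. The clock genes outside the range of the middle 90% were therefore found on both sides of it. With 1 mean for each sex the ratios could not be tested against the spread between mice. The hour of collection is not given, so sex cannot be told apart from a difference in hour between male and female livers.

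Markers of the cell types in liver were read in the same way. The summed means of 4 Kupffer cell and leukocyte genes (Clec4f, Adgre1, Cd5l, Ptprc) were 1.04 times as high in females as in males, with single genes from 762 to 2806 in males and 763 to 2853 in females. The ratio was 1.31 for stellate cell genes (Lrat, Reln, Dcn, Des; 95.4 to 4723 in males, 125 to 5997 in females) and 1.16 for sinusoidal endothelial genes (Stab2, Clec4g, Lyve1, Pecam1; 287 to 5212 and 213 to 6094). Among the endothelial genes, Lyve1 (0.743) was listed lower in females, while Stab2 (1.17), Clec4g (1.21) and Pecam1 (1.15) were listed higher. For cholangiocyte genes (19.7 to 245 and 34.3 to 209) the summed ratio was 1.04. Of these, Sox9, with the highest means, was listed lower in females (0.854), while Krt19 (1.93), Krt7 (1.55) and Epcam (1.44) were listed higher. For hepatocyte genes the summed ratio of 1.26 was carried by Alb (1.35), while Apoa1 (0.734), Ttr (0.931) and Cyp2e1 (0.992) were listed lower in females. No marker was at 0, and the part of cell makeup in the clock gene ratios was not tested. In such bulk samples, fewer cells of a type and less RNA per cell cannot be told apart.

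Of 14 other clock genes, 13 had a mean of at least 10 in both tables. Rorb was listed at 1.80 in males. It was not listed in the female table, which holds no mean below 6.61, so nothing is read from its absence. Ciart, which encodes a repressor of the CLOCK pair, had means of 1047 in males and 448 in females. Bhlhe41, or Dec2, which competes for E-boxes, had means of 368 and 198. These 2 of 13 genes (15.4%), both higher in males, were the ones past 1.5-fold. Of all genes, 12.3% were past it in either direction and 3.66% in the direction of males. Nfil3, the repressor at D-boxes, came next with means of 411 and 276 and a female to male ratio of 0.672.

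The activators at D-boxes differed little between the sexes. Dbp had means of 3742 and 3655, Tef 8299 and 7309, and Hlf 3065 and 2679, with ratios from 0.874 to 0.977. Rora, whose receptor acts against REV-ERB, had means of 5074 and 4696. The E-box repressor Bhlhe40, or Dec1, had almost the same mean in both, 7486 and 7506. The genes for the kinases of PER proteins, Csnk1d (ratio 1.02) and Csnk1e (1.05), lay near the median ratio of 1.04 over all genes. Those for the F-box proteins Fbxl21 (1.24) and Btrc (1.09), and Timeless (1.19), were listed slightly higher in females. Fbxl21 had low means of 57.3 in males and 71.2 in females, and Timeless of 75.5 and 89.7. The median ratio was 0.977 over the 13 other clock genes and 1.04 over the 9 core clock genes.

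**Figure D2:**
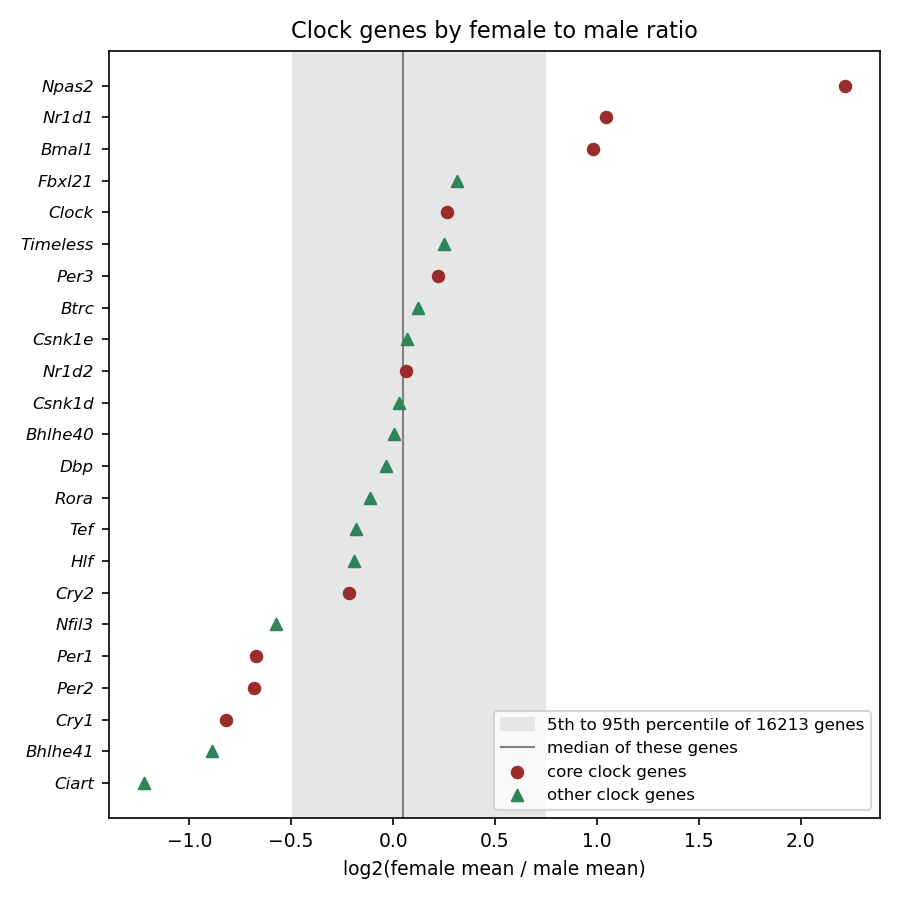
Female mean over male mean on a log2 scale for the 10 core clock genes (circles) and the 13 other clock genes listed in both tables (triangles), in order of the ratio. The grey band spans the 5th to 95th percentile of 16213 genes and the line is their median. Npas2, Nr1d1 and Bmal1 lie above the band and Nfil3, Per1, Per2, Cry1, Bhlhe41 and Ciart below it.

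Ratios between relatives within a table do not depend on how the tables were scaled. Clock exceeded Npas2 149.6 times per kilobase in males and 38.7 times in females. The male ratio rests on an Npas2 mean of 3.68, below the minimum of 10. Per1 and Per2 stayed close to each other, at a ratio of 0.937 in males and 0.943 in females. Because length cancels when such a ratio is compared between the sexes, the Per1 to Per2 ratio of females was 1.01 times that of males whatever length was used.

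The ratio of Per3 to Per2 was 0.707 in males and 1.32 in females, a change of 1.87 times. The ratio of Cry1 to Cry2 was 0.305 and 0.201, so Cry2 was the more abundant cryptochrome in both, and more so in females. The ratio of Nr1d1 to Nr1d2 was 1.12 in males and 2.22 in females, a change of 1.97 times. With the longest transcript as the length, the ratio of Per1 to Per2 was 1.03 in males and 1.04 in females, that of Per3 to Per2 was 1.18 in males and that of Nr1d1 to Nr1d2 was 0.797 in males, so which member of these pairs was higher depended on the length. The ratio of Nr1d1 to Bmal1 was almost the same in both sexes, 140 and 146. That of Nr1d2, the other REV-ERB gene, to Bmal1 was 125 and 66.0, and that of Per2 to Bmal1 was 86.1 and 27.2. The ratios of Clock, Cry1, Per1 and Per3 to Bmal1 were also lower in females. The size of these ratios depends on the length used. With the longest transcript they were 63.8 and 66.6 for Nr1d1, 80.0 and 42.3 for Nr1d2, and 36.1 and 11.4 for Per2. The ratio of Nr1d1 to Cry1 was 10.2 in males and 36.9 in females, 3.63 times as high.

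Per kilobase, the 10 genes summed to 2756 in males and 3213 in females. Nr1d1 and Nr1d2 made up 46.2% of the sum in males and 62.7% in females. The 3 period genes made up 39.7% and 26.2%, the cryptochromes 10.3% and 7.001%, and Bmal1, Clock and Npas2 together 3.85% and 4.15%. Nr1d1 alone went from 24.5% to 43.2%. With the longest annotated transcript as the length, the REV-ERB genes made up 44.9% and 58.6%, and the order of the groups was kept. Shares without division by length were not computed, so the order of the groups is given only for these lengths. Before that division, male means were 2185 for Nr1d1 and 5424 for Nr1d2, against 2967 for Per1, 2714 for Per2 and 3065 for Per3. Nr1d1 thus had a lower mean than each of the 3 period genes in males.

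**Figure D3:**
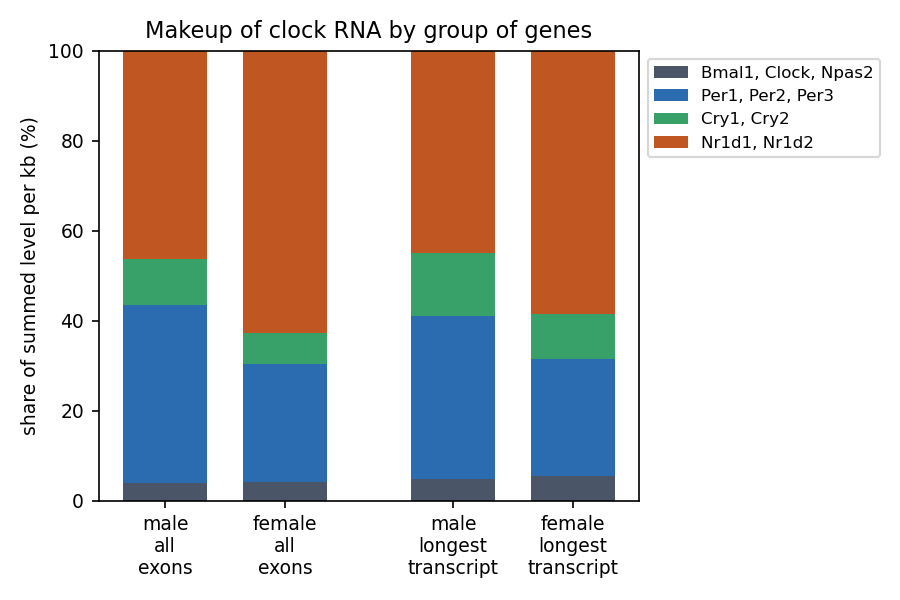
Share of the summed level per kilobase of the 10 core clock genes held by each group of genes, in percent, for each sex and with either the summed length of all exons or the longest transcript as the length. Nr1d1 and Nr1d2 hold the largest share in every bar, 46.2% in males and 62.7% in females by exon length, and the period genes the next.

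Sequence shared with other genes bears on these levels, because the authors counted uniquely mapped reads. Of the 31-base words of the transcripts of Per2 and Cry1, 0% occurred in transcripts of another gene. For 9 of the genes at most 2.26% of the words occurred in genes elsewhere in the genome, and for Nr1d2 it was 7.95%. With words of 100 bases, nearer to the read length of 150 bp, Nr1d2 shared 0.417% of its words with any other gene. Nr1d1 shared 48.1% of its words with Thra, the thyroid hormone receptor gene that overlaps it on the opposite strand over 1694 exon bases, or 52.3% of its exon length. Thra had means of 333 in males and 369 in females, and the authors counted in reverse-stranded mode, which assigns reads of the 2 strands to different genes. Clock overlapped Tmem165 on the opposite strand over 11.9% of its exon length. No gene overlapped an exon of a clock gene on the same strand.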

How the data were processed

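Livers of 12 mice were profiled by RNA-seq. The authors aligned 150 bp paired reads to GRCm39 with STAR 2.7, a version from the submitters' processing notes, used HTSeq in its reverse-stranded setting to count uniquely mapped reads over Ensembl release 110 genes, and applied DESeq2 to males and females separately. The signal deposited by the authors is the mean, over the 6 libraries of a sex, of counts divided by DESeq2 size factors. The remaining 5 measured columns of each table are the authors' own comparison of Midn-T with WT (log2 fold change, its standard error, statistic, p-value and adjusted p-value) and were not used. The lists of differential ATAC-seq peaks, from 8 libraries of which 5 have titles at odds with their library names, hold only such calls and were not used either.

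Genes were joined by Ensembl identifier, and GENCODE M39 on GRCm39 held 56323 of them and lacked 561. Levels were divided by the summed length of all exons of a gene. Percentiles and counts between the sexes used genes with a mean of at least 10 in both tables. Motifs were searched as exact letters around the start of the annotation's canonical transcript. Python 3.11.15, numpy 2.4.6, pandas 2.3.3 and matplotlib 3.10.9 were used, and the functions were tested on simulated data. The named genes are the 10 clock genes, 14 other clock genes, Midn and 20 cell type markers, all fixed as lists, and genes overlapping a clock gene; 2 further listed genes are not reported here. The genes and lists were chosen with earlier results of these data known. Alternatives were other lengths, gene sets, scalings between the tables, search windows and word lengths.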

Additional observations from a re-analysis of the deposited data

How the results depend on the processing

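Each of 3 other scalings between the tables multiplies all female to male ratios by a single factor, from 0.966 to 1.02, so it says nothing of their order or stability, and 5 clock genes were past 1.5-fold under each. The clock genes above the median gene numbered 8 in males, 7 among protein-coding genes only and 6 with a minimum mean of 100, and 7 in females under the 4 alternatives run. Length mattered more, and the annotation lists as many as 85 transcripts for a gene (Bmal1). The median level per kilobase in males moved from 255 to 436.7 with the longest transcript and to 400.2 with the exons of protein-coding transcripts. With the longest transcript, and then with no division by length, the ratio of Per1 to Per2 became 1.03 and 1.09 in males and 1.04 and 1.10 in females, that of Per3 to Per2 1.18 and 1.13 in males and 2.20 and 2.11 in females, and that of Cry1 to Cry2 0.194 and 0.177 in males and 0.128 and 0.116 in females. The ratio of Nr1d1 to Nr1d2 became 0.797 and 0.403 in males, and 0.795 in females with no division by length. That of Clock to Npas2 became 471 in males and 122 in females with no division. So the order of Per1 and Per2, of Per3 and Per2 in males, and of Nr1d1 and Nr1d2 depends on the length used. No paired analysis was possible because the values used are means over all mice of a sex, and for the same reason no replicate could be left out. The unknown depth limits the low means, Npas2 above all.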
